A study of Homo sapiens with 2 samples.

Results

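The genes described here are the aminoacyl-tRNA synthetases, 38 of the 18781 genes of the deposited table. They were picked by gene name, with earlier results of these data known. The names were a letter for the amino acid followed by ARS, with or without a final 2, together with FARSA, FARSB, EPRS and TARSL2. The 17 genes whose names end in 2, TARSL2 apart, encode the mitochondrial enzymes and the other 21 encode the cytosolic enzymes, of which GARS and KARS also supply mitochondria from the same gene. The gene descriptions deposited beside the values called all 38 a tRNA synthetase, and 3 further genes with those words in their descriptions (AIMP1, AIMP2 and AARSD1) are not synthetases and were not members. The values come from T47D, a line of luminal breast cancer cells, with the genotype given as WT in both groups. Lysate was put on protein A beads that carried either an antibody against IMP1, an RNA-binding protein, or normal IgG as the control, and the RNA that stayed on the washed beads was sequenced (RNA immunoprecipitation, RIP). Each group was 1 library, so the differences have no replicate check, no test between the groups was possible, and every value is given without an error. No library of the unprecipitated lysate was analysed here, so a level on the beads cannot be set against the level of the mRNA in the cells.

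An aminoacyl-tRNA synthetase joins an amino acid to the tRNAs that carry its anticodons, the step that gives the genetic code its meaning. The cytosol and the mitochondria each need a complete set, and most amino acids are served by a separate nuclear gene for each compartment. In the cytosol, a group of the enzymes is held with scaffold proteins in the multi-synthetase complex. Many cytosolic synthetase genes are targets of ATF4, the transcription factor of the response to amino acid shortage, and WARS is induced by interferon gamma.

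The values are FPKM (fragments per length of transcript and per size of library), so levels of different genes can be set beside each other per length, but not read as counts. Their sum was 353885 with the IMP1 antibody and 1298363 with IgG. Zeros numbered 1548 with the IMP1 antibody and 7498 with IgG. Mitochondrial ribosomal RNA took 37.7% and 52.5% of these sums. Ratios are given as log2 of (FPKM + 0.1) with the IMP1 antibody over (FPKM + 0.1) with IgG, a scale that understates the difference of low genes. For a gene listed at 0 with IgG no ratio is given by itself, though it enters the counts, medians and figures.

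More synthetase mRNAs were lower than higher in the IMP1 precipitate, a direction that turned when the IMP1 values were rescaled to the sum over all genes (19 higher and 3 lower). Of the 38, 18 were at least 2-fold lower with the IMP1 antibody than with IgG, 9 were at least 2-fold higher and 11 lay within 2-fold. Over all genes 29.9% were lower and 39.9% were higher by the same rule. Of the 9 that were higher, 7 were listed at 0 with IgG, and the other two were QARS and FARSA. Among the 29 members that reached 1 FPKM in each library, 18 were lower and QARS was the sole member that was higher. Of the 6909 genes that met that condition, 44.0% were lower and 11.5% were higher. The median log2 ratio of the 29 was -1.77, and that of the 6909 genes was -0.78. The FPKM scale of a library is set by its own total, and 3 rescalings of the IMP1 values shift every log2 ratio upward, by 0.79 where the median gene is set equal, by 0.54 where the sum without the 50 highest genes is, and by 1.88 where the whole sum is. Of the synthetases past 2-fold, 33.3% were higher as deposited, 44.0% after the median gene was set equal and 86.4% after the whole sum was. Over all genes past 2-fold, 57.2%, 69.9% and 83.1% were higher under the same scales. Rescaled to the whole sum, 13.0% of all genes were lower and 63.7% higher, beside 3 and 19 of the 38 synthetases. Of the 27 synthetases above 0 in both libraries with a ratio below 0, the shifts turned 5, 3 and 13 to above 0.

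**Figure D1:**
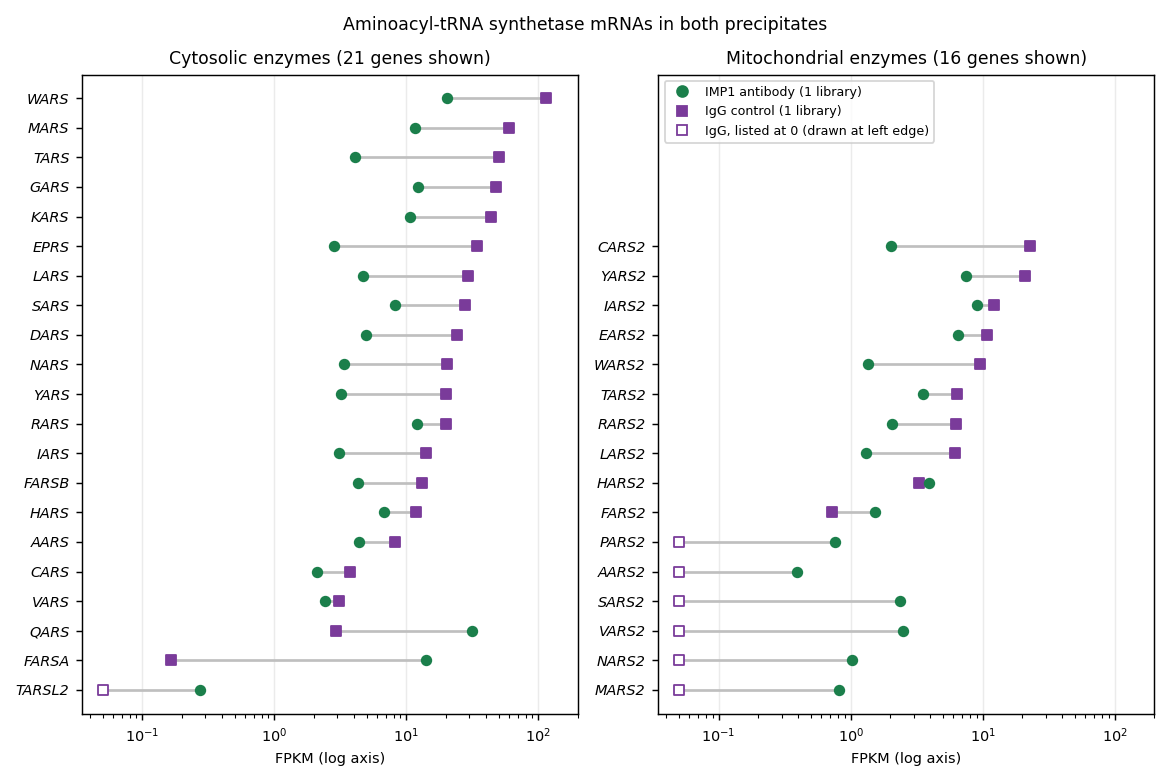
FPKM of all but 1 of the 38 synthetases in each library, with the cytosolic and the mitochondrial enzymes apart. Most cytosolic enzymes lie higher with IgG, QARS (31.3 FPKM with IMP1 and 2.90 FPKM with IgG) and FARSA (14.2 and 0.164 FPKM) lie the other way, and 7 enzymes are listed at 0 with IgG.

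The cytosolic enzymes had the lower ratios of the compartments. At least 2-fold lower values with the IMP1 antibody were found for 13 of the 21, with 3 higher and 5 within 2-fold. Over all genes 29.9% were lower and 39.9% were higher. The median log2 ratio was -1.96, against 0.40 over all genes, of which 7498 were listed at 0 with IgG. Among genes that reached 1 FPKM in each library, 13 of 19 cytosolic enzymes were lower, beside 44.0% of all genes. The medians there were -2.04 and -0.78. Rescaled to the sum over all genes, 2 of the 21 were lower and 7 were higher, with a median of -0.10. Of all genes, 13.0% were lower and 63.7% higher on that scale, with a median of 1.87. Together they had 166.9 FPKM with the IMP1 antibody and 548.3 FPKM with IgG, and the median enzyme had 4.69 and 20.04 FPKM. The direction of the sum turns when it is taken as a share of all FPKM, since the IgG library has the larger total: the cytosolic enzymes held 0.0471% with the IMP1 antibody and 0.0422% with IgG.

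TARS, the threonine enzyme, had the lowest ratio of the family. It had 4.09 FPKM with the IMP1 antibody and 50.7 FPKM with IgG, a 12.4-fold lower level (log2 ratio -3.60). EPRS, which joins the glutamate and proline enzymes in a single protein, had 2.81 and 34.3 FPKM (log2 ratio -3.56). Both were also past 4-fold. Under the rescaling least favourable to a lower value, to the sum over all genes, the log2 ratio of TARS was -1.75 and that of EPRS was -1.73. Genes about as low as these were not rare in the table: among the 697 genes within 1.5-fold of the IgG level of TARS, 11.8% had a log2 ratio at or below its own, and among the 1133 within 1.5-fold of EPRS, 13.3% did.

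The enzymes between 4.13-fold and 6.23-fold lower were those for leucine, tyrosine, asparagine, tryptophan, methionine, aspartate, isoleucine and lysine. LARS, which also senses leucine for mTORC1, had 4.69 FPKM with the IMP1 antibody and 29.1 FPKM with IgG. YARS had 3.22 and 20.04 FPKM, and NARS had 3.35 and 20.2 FPKM. MARS, which charges the initiator tRNA as well as the elongator tRNA for methionine, had 11.6 and 59.5 FPKM. These 4 had log2 ratios of -2.61, -2.60, -2.56 and -2.34. DARS had 4.95 and 24.3 FPKM, and IARS had 3.06 and 14.1 FPKM. KARS had 10.7 and 44.1 FPKM.

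Smaller ratios were found for the remaining cytosolic enzymes that were lower. GARS, which like KARS serves both compartments, had 12.2 FPKM with the IMP1 antibody and 47.8 FPKM with IgG (log2 ratio -1.96). SARS, the serine enzyme, had 8.13 and 27.9 FPKM (log2 ratio -1.77). Rescaling to the sum over all genes turns the direction of SARS, to a log2 ratio of 0.09. AARS, CARS, HARS, RARS and VARS lay within 2-fold, each with a ratio below 0 that the rescaling to the whole sum turns. AARS had 4.37 and 8.14 FPKM, and CARS had 2.09 and 3.76 FPKM. RARS, the arginine enzyme, had 11.95 and 19.95 FPKM. VARS, the valine enzyme, had 2.43 and 3.09 FPKM and the log2 ratio nearest to 0 (-0.33). HARS is described with HARS2.

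QARS, the glutamine enzyme and the highest synthetase of the IMP1 library, went the other way. Its gene lies on chromosome 3 from 49133365 to 49142553 (hg19). It had 31.3 FPKM with the IMP1 antibody and 2.90 FPKM with IgG, a 10.8-fold higher level (log2 ratio 3.39). Among the 571 genes within 1.5-fold of its IMP1 level, 7.36% had a log2 ratio at least as high. QARS stayed more than 2-fold higher with pseudocounts of 1 and 0.01 (log2 ratios 3.05 and 3.43). The filters leave its ratio as it is and the 3 rescalings can only raise it, so they do not check its direction.

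The cytosolic phenylalanine enzyme is built from an alpha subunit, FARSA, and a beta subunit, FARSB, in equal numbers, and the mRNAs of its subunits lay on opposite sides. FARSA (chromosome 19, 13033293 to 13044851, hg19) had 14.2 FPKM with the IMP1 antibody and 0.164 FPKM with IgG (log2 ratio 5.76). FARSB (chromosome 2, 223435255 to 223521056, hg19) had 4.27 and 13.2 FPKM (log2 ratio -1.60). With the IMP1 antibody FARSA was 3.32-fold above FARSB, and FARSB was 80.4-fold above FARSA in the IgG library. The IgG value of FARSA is under 1 FPKM, where a few fragments decide a level, so the size of its ratio rests on that low value. Rescaling to the sum over all genes turns FARSB to a log2 ratio of 0.25 and can only raise FARSA. Among the 1307 genes within 1.5-fold of the IMP1 level of FARSA, 7.73% had a log2 ratio at least as high.

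**Figure D2:**
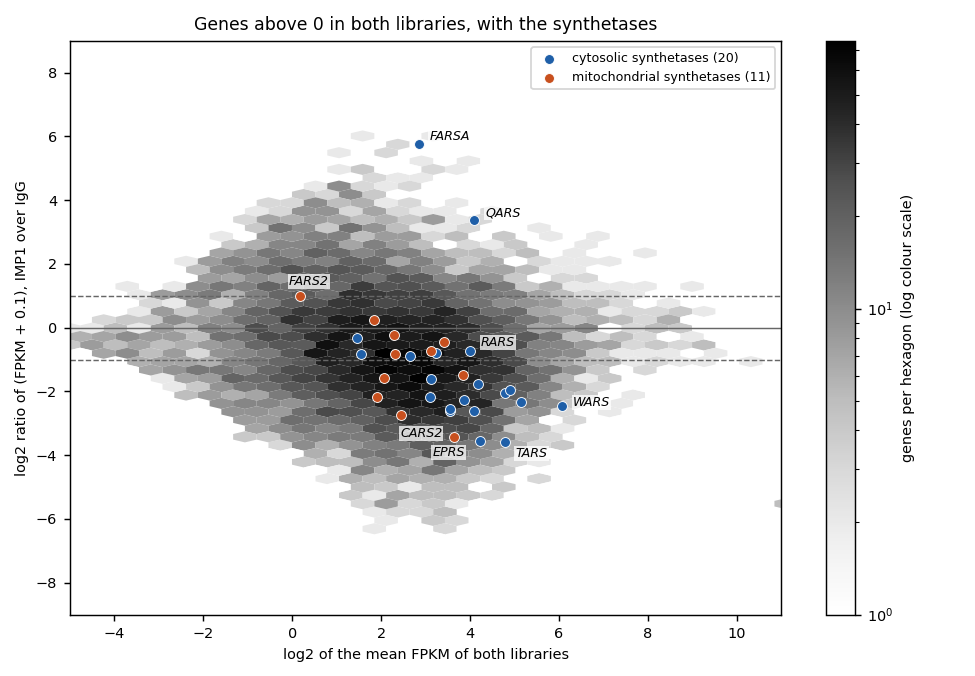
Log2 ratio of (FPKM + 0.1), IMP1 over IgG, against log2 of the mean FPKM of both libraries for the genes above 0 in both, as hexagons shaded by the number of genes, with 20 cytosolic and 11 mitochondrial synthetases as points and dashed lines at 2-fold; genes beyond the axes are not drawn. QARS at 3.39 and FARSA at 5.76 lie above the upper line, while TARS at -3.60, EPRS at -3.56 and CARS2 at -3.43 lie lowest among the synthetases.

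The multi-synthetase complex holds EPRS, MARS, QARS, RARS, KARS, LARS, IARS and DARS. Of these 8 enzymes, 6 were at least 2-fold lower with the IMP1 antibody, QARS was higher and RARS lay within 2-fold, with a median log2 ratio of -2.22 (1 lower, 2 higher and -0.38 after rescaling to the sum over all genes). Of the 13 cytosolic enzymes outside the complex, 7 were lower and 2 were higher, with a median of -1.60 (1 lower, 5 higher and 0.25 after that rescaling). Among all genes 29.9% were lower and 39.9% higher as deposited, and 13.0% and 63.7% after that rescaling. All 8 enzymes of the complex reached 1 FPKM in each library, where 44.0% of all genes were lower and 11.5% higher. The enzymes inside and outside the complex were not compared by a test. The scaffold proteins of the complex did not share a level of ratio. EEF1E1, the smallest scaffold, had 10.2 FPKM with the IMP1 antibody and 42.2 FPKM with IgG (log2 ratio -2.04). AIMP1 had 5.45 and 9.36 FPKM, and AIMP2 had 11.7 and 12.04 FPKM, both within 2-fold.

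By catalytic fold, the class I enzymes (18 genes) had 10 lower and 3 higher with a median log2 ratio of -1.53, and the class II enzymes (19 genes) had 7 lower and 6 higher with a median of -0.79. EPRS holds both folds and was counted in neither. Over all genes 29.9% were lower and 39.9% were higher. Of the higher genes, 2 of the 3 in class I and 5 of the 6 in class II were listed at 0 with IgG. Restricted to genes that reached 1 FPKM in each library, the medians were -1.87 for 16 class I enzymes and -1.68 for 12 class II enzymes, while above 0 in both libraries they were -1.87 for 16 and -1.24 for 14. The step from 14 to 12 class II enzymes leaves out FARSA and FARS2, whose IgG levels were under 1 FPKM.

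Synthetases known as ATF4 targets made up most of the lower cytosolic enzymes. The list (AARS, CARS, EPRS, GARS, IARS, LARS, MARS, NARS, SARS, TARS, WARS and YARS) had 10 of 12 at least 2-fold lower with the IMP1 antibody and 0 higher, and its median log2 ratio was -2.40. The 9 other cytosolic synthetases had 3 lower and 3 higher, with a median of -0.73. Over all genes 29.9% were lower and 39.9% were higher. All 12 of the list reached 1 FPKM in each library, where 44.0% of all genes were lower and 11.5% higher. The list was drawn up with earlier results of these data known, so the contrast between these groups is a description only. After rescaling to the sum over all genes 2 of the 12 (TARS and EPRS) were lower and 1 was higher, with a median of -0.54, and 0 of the 9 were lower and 6 were higher, with a median of 1.13. On that scale 13.0% of all genes were lower and 63.7% higher, with a median of 1.87. The list takes in enzymes of high IgG level, with a median of 28.5 FPKM with IgG against 11.9 FPKM for the other 9. Of 16 other ATF4 targets, 8 were lower and 2 were higher, with a median of -1.14. DDIT3, a stress-induced transcription factor, had 3.64 FPKM with the IMP1 antibody and 97.2 FPKM with IgG. SHMT2, the mitochondrial serine hydroxymethyltransferase, had 29.0 and 9.47 FPKM and lay on the other side. PHGDH, the entry enzyme of serine synthesis, had 9.96 FPKM with the IMP1 antibody and was listed at 0 with IgG.

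ATF4 binds, with a partner factor, a composite element near the start sites of its targets, and the promoter stretches that hold such letters are shown as a feature of these genes that the RIP values did not enter. RefSeq promoter windows (GRCh38.p14, 250 bases before to 50 after the start site) were matched for 30 of the 38 members through their current symbols and searched on both strands for TGATGNAA, whose reverse complement is TTNCATCA. A match was found in 7 of the 10 windows of the ATF4 list and in 0 of the 6 windows of other cytosolic enzymes, in 1 of 14 mitochondrial windows (YARS2), and in 4.46% of the 27305 windows of the whole table. The genes of the list are known as ATF4 targets partly through such sequences, so the matches are no separate evidence, and a match is a run of letters and not a bound site. Each stretch reads 5′ to 3′ on the strand of the gene, with the match in capitals.
TARS, chr5:33440956-33440985, match from 3 to 10: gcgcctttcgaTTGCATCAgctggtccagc
NARS, chr18:57621804-57621833, match from 15 to 22: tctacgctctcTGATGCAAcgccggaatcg
MARS, chr12:57488053-57488082, match from -4 to 4: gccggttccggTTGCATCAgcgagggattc
IARS, chr9:92293692-92293721, match from -13 to -6: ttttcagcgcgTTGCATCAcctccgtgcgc
GARS, chr7:30594834-30594863, match from -33 to -26: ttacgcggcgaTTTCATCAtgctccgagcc
CARS, chr11:3057407-3057436, match from -2 to 6: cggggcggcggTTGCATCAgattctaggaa
AARS, chr16:70289675-70289704, match from -187 to -180: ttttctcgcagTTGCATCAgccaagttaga
Positions count from the start site, whose first transcribed base is 1. The match lay at most 33 bases from the start site in all of these but AARS, which had it farther upstream. AARS and CARS, whose ratios were nearest to 0 in the list, hold the same 8 letters as TARS, whose ratio was the lowest.

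WARS, the tryptophan enzyme, had the highest IgG level of the family. It had 113 FPKM with IgG and 20.4 FPKM with the IMP1 antibody (log2 ratio -2.47), and among the 236 genes within 1.5-fold of its IgG level 25.0% had a ratio as low. Its gene is also induced by interferon gamma, and of 9 other genes of that response that were found, 7 were at least 2-fold lower with the IMP1 antibody and 0 were higher, with a median log2 ratio of -3.84. The shares of all genes were 29.9% lower and 39.9% higher. Only 4 of the 9 reached 1 FPKM in each library, and 3 of these were lower, beside 44.0% of all genes. CD74, the invariant chain of MHC class II, had 6.42 FPKM with the IMP1 antibody and 305 FPKM with IgG. HLA-DRA, an MHC class II chain, was listed at 0 with the IMP1 antibody and had 17.4 FPKM with IgG. TAP1, the peptide transporter of MHC class I, had 10.2 and 7.90 FPKM. The summed level of these 9 genes was 25.1 FPKM with the IMP1 antibody and 449.9 FPKM with IgG, and whether it has a part in the WARS value was not tested.

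Markers of other cell types differed between the libraries, and the synthetases are read beside them. All 10 mesenchymal markers were lower with the IMP1 antibody, with a summed level of 2.64 FPKM against 233.5 FPKM with IgG, and 5 of them (DCN, LUM and ZEB2 among these) were listed at 0 with the IMP1 antibody. Of 10 luminal markers 5 were higher and 0 were lower, with sums of 1203 and 555.0 FPKM. The shares of all genes were 39.9% higher and 29.9% lower. KRT19 and KRT18, keratins of luminal cells, had 371 and 143 FPKM with the IMP1 antibody and 78.8 and 25.8 FPKM with IgG. The labelled cell type was thus seen in both libraries by its keratins, and mesenchymal markers were seen mainly with IgG. Their part in the synthetase ratios was not tested. A difference between the lysates and a difference in what the beads kept cannot be told apart. Nor can fewer cells of a type and less RNA per cell.

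The mitochondrial enzymes had lower levels and, over all 17, no common direction. Of the 17, 5 were at least 2-fold lower with the IMP1 antibody, 6 were at least 2-fold higher and 6 lay within 2-fold. These are 29.4% lower and 35.3% higher, near the 29.9% and 39.9% over all genes. Their median log2 ratio was -0.24, and it turned to 0.54, 0.29 and 1.61 under the median-gene, 50-highest and whole-sum rescalings. All 6 that were higher were listed at 0 with IgG. Among the 10 that reached 1 FPKM in each library, 5 were lower and 0 were higher, beside 44.0% lower and 11.5% higher of all genes. The medians there were -1.16 and -0.78. The median mitochondrial enzyme had 2.06 FPKM with the IMP1 antibody and 5.34 FPKM with IgG, and the sums were 51.1 and 104.8 FPKM. As a share of all FPKM the direction turns, with 0.0144% with the IMP1 antibody and 0.00807% with IgG.

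CARS2, the mitochondrial cysteine enzyme, was the lowest of them. It had 2.03 FPKM with the IMP1 antibody and 22.9 FPKM with IgG, an 11.3-fold lower level (log2 ratio -3.43) that was near those of TARS and EPRS, and 16.0% of the 1540 genes within 1.5-fold of its IgG level were as low. WARS2 had 1.34 and 9.52 FPKM, and LARS2 had 1.31 and 6.22 FPKM, with log2 ratios of -2.74 and -2.17. RARS2, the arginine enzyme, had 2.06 and 6.33 FPKM. YARS2, the tyrosine enzyme, had 7.49 and 21.1 FPKM, the second highest IgG level of the group. Rescaling to the sum over all genes turns both RARS2 (log2 ratio 0.25) and YARS2 (0.38).

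A further 6 mitochondrial enzymes lay within 2-fold on the log2 scale with 0.1 added, all but HARS2 and FARS2 with a ratio below 0 that the rescaling to the whole sum turns. TARS2 had 3.53 FPKM with the IMP1 antibody and 6.36 FPKM with IgG, and EARS2, which charges both the glutamate and the glutamine tRNA before a separate step converts the latter, had 6.49 and 10.8 FPKM. IARS2, the highest of the group in the IMP1 library, had 8.998 and 12.2 FPKM. HARS2, the histidine enzyme, had 3.90 and 3.29 FPKM. FARS2, which in mitochondria does as a single chain what FARSA and FARSB do together, had 1.53 and 0.718 FPKM (log2 ratio 0.99), a 2.12-fold higher level before 0.1 was added and a log2 ratio of 1.08 with 0.01 added, so that its place within 2-fold rests on that constant. EARS2 at -0.73 and TARS2 at -0.83 were the nearest to the limit on the other side.

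The enzymes listed at 0 with IgG had 2.48 FPKM or less in the IMP1 library. VARS2 had 2.48 FPKM with the IMP1 antibody and SARS2 had 2.38 FPKM, both above the mitochondrial median of 2.06 FPKM. NARS2 had 1.03 FPKM, MARS2 had 0.815 FPKM, PARS2 had 0.768 FPKM and AARS2 had 0.394 FPKM. The cytosolic TARSL2, another threonine enzyme, had 0.276 FPKM and was also listed at 0 with IgG. In the whole table, 7498 of 18781 genes were listed at 0 with IgG, and of the synthetases 7 of 38 were. How many fragments a value of 0 leaves room for is unknown, because the values are FPKM.

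Cytosolic and mitochondrial enzymes of the same amino acid were set side by side in 18 pairings, with EPRS and FARS2 each used in a pair of them. The mitochondrial mRNA had the lower level in 14 pairings in the IMP1 library and in 15 in the IgG library. The log2 ratio was larger for the mitochondrial enzyme in 8 of the 12 pairings with all 4 values above 0, where the median difference was 1.08. In the other 6 pairings the mitochondrial enzyme was listed at 0 with IgG, so its ratio lies above 0 by construction. All their cytosolic partners had ratios below 0. These 6 bring the count to 14 of 18 and say nothing further about direction. Threonine had TARS at -3.60 and TARS2 at -0.83. Cysteine was the reverse, with CARS at -0.82 and CARS2 at -3.43. Tryptophan had like ratios for WARS at -2.47 and WARS2 at -2.74.

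**Figure D3:**
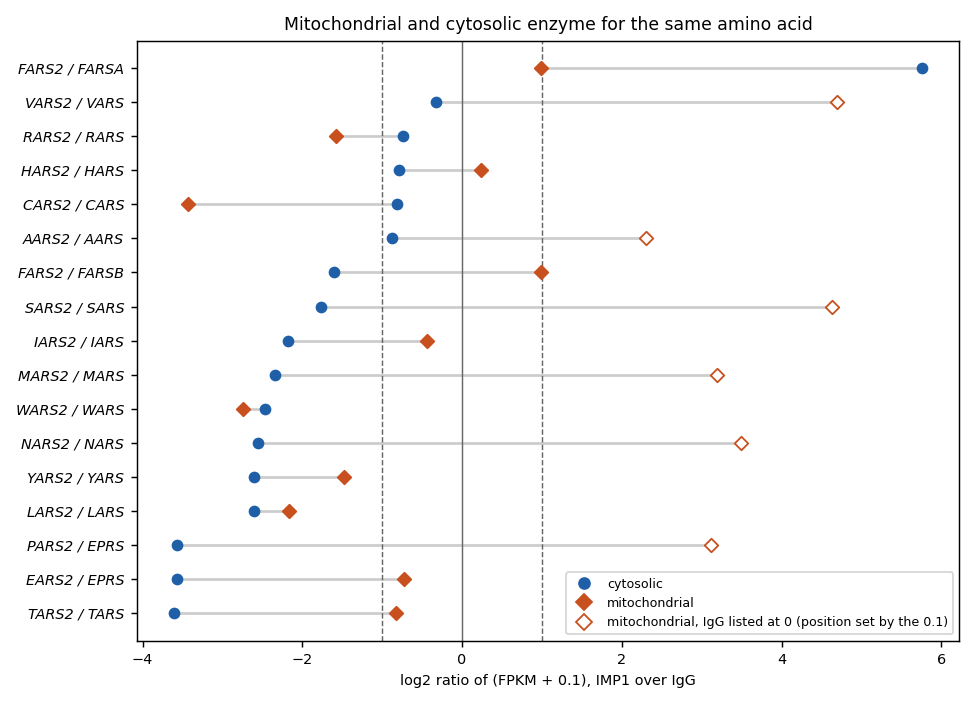
Log2 ratio of (FPKM + 0.1), IMP1 over IgG, of the cytosolic and the mitochondrial enzyme for all but 1 of the 18 pairings, with each pair joined by a line and open symbols for enzymes listed at 0 with IgG, whose position depends on the constant added. The mitochondrial symbol lies to the right in most pairings, where an open symbol lies above 0 by construction. Cysteine (CARS at -0.82, CARS2 at -3.43) and FARSA with FARS2 (5.76 and 0.99) are the widest exceptions.

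HARS and HARS2, the histidine enzymes, are head-to-head neighbours on chromosome 5 and share a locus entry in the deposited table (140044261 to 140086248, hg19). HARS had 6.81 FPKM with the IMP1 antibody and 11.9 FPKM with IgG (log2 ratio -0.79). HARS2 had 3.90 and 3.29 FPKM (log2 ratio 0.24). Neither passed 2-fold, and the distance between them was 1.03 on the log2 scale. In RefSeq (GRCh38.p14) their start sites lie on opposite strands with 84 bases between them, shown here on the forward strand with each CG in capitals because both genes read out of this stretch.
Between HARS and HARS2, chr5:140691371-140691454: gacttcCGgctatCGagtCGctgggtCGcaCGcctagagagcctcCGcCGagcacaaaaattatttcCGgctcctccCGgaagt
It holds 9 CG and is 59.5% G or C. HARS starts to the left of it and HARS2 to the right.

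The mean level of a gene moved with its ratio over the whole table, and the compartments differ in level. Of all genes with a mean of both libraries from 5 to 20 FPKM, 53.8% were lower and the median log2 ratio was -1.18, while from 1 to 5 FPKM the median was -0.02. From 5 to 20 FPKM, 8 of 13 cytosolic enzymes were lower (median -1.77) and 3 of 5 mitochondrial enzymes were lower (median -1.48). At 20 FPKM or more all 5 cytosolic enzymes (KARS, GARS, TARS, WARS and MARS) were lower, with a median of -2.34 against -0.94 for the 1529 genes at that level, of which 48.5% were lower. From 1 to 5 FPKM, 2 of 8 mitochondrial enzymes were higher and 2 were lower, and CARS and VARS lay within 2-fold. Of all genes there, 37.3% were higher and 34.3% lower. Under 1 FPKM, 59.6% of all genes were higher, with a median of 1.40. The 1 cytosolic and 4 mitochondrial enzymes there were all listed at 0 with IgG. The difference between the medians of the compartments was 1.72 over all members, 1.17 over those above 0 in both libraries and 0.88 over those that reached 1 FPKM in each. The parts of level and compartment in that difference cannot be told apart.

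The partners of the synthetases in tRNA charging were spread over both directions in each compartment. Of 14 partners of charging in the cytosol, such as elongation factors, 3 were higher and 5 were lower, with a median log2 ratio of -0.52. EEF1A1, which carries charged tRNA to the ribosome, had 918 FPKM with the IMP1 antibody and 423 FPKM with IgG. Of 26 mitochondrial partners, such as tRNA-modifying enzymes and elongation factors, 12 were higher, 8 of these with IgG at 0, and 8 were lower, with a median of 0.71. These shares, 46.2% higher and 30.8% lower, were near the 39.9% and 29.9% over all genes. TRMT5, a tRNA methyltransferase, had 1.15 and 19.4 FPKM, and ELAC2, which trims tRNA ends, had 4.48 FPKM with the IMP1 antibody and was listed at 0 with IgG. Among genes that reached 1 FPKM in each library, 68.4% of 19 cytosolic synthetases were lower, beside 44.0% of all 6909. Mitochondrial ribosomal proteins (32.8% of 67) and translation factors (35.3% of 51) lay below that share.

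**Figure D4:**
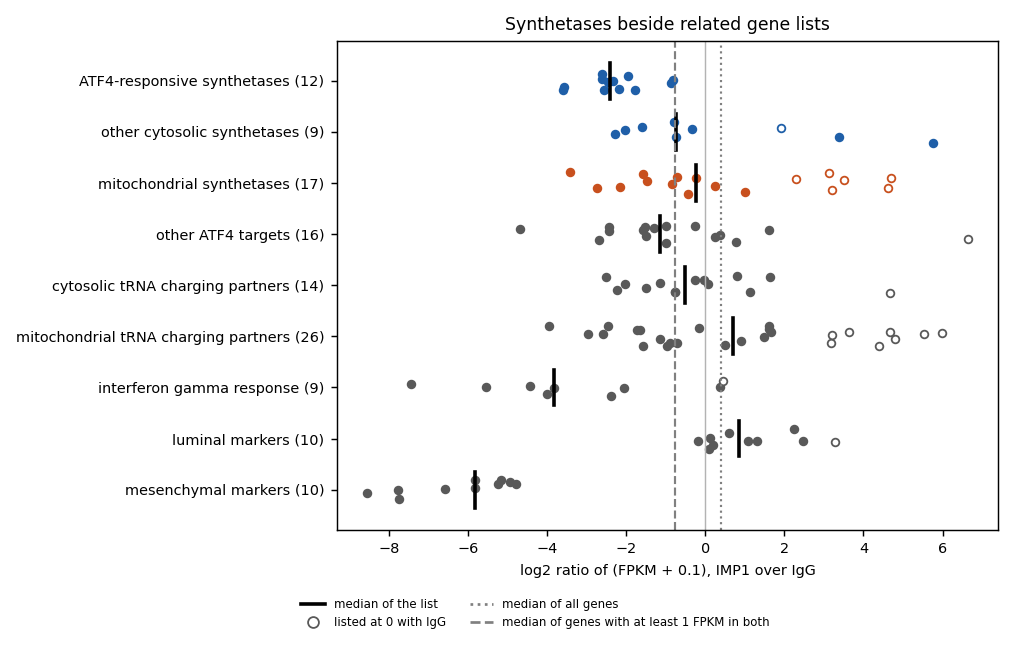
Log2 ratio of (FPKM + 0.1), IMP1 over IgG, for the genes of each list, with black bars at the list medians, open circles for genes listed at 0 with IgG, and lines at the median of all genes (0.40) and of genes that reached 1 FPKM in each library (-0.78). The ATF4-responsive synthetases lie at a median of -2.40 and the other cytosolic synthetases at -0.73, and 5 of the mesenchymal markers, DCN, LUM and ZEB2 at the far left among them, are listed at 0 with the IMP1 antibody.

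The length of the gene was set against the ratio as a description. Over the 18 members alone in their locus entry and above 0 in both libraries, Spearman's rho between the span of the locus and the log2 ratio was -0.38. Over 3691 genes alone in their entry that reached 1 FPKM in each library, rho was -0.18. These sets are not alike, because FARSA and FARS2, among the 18, had IgG levels under 1 FPKM. All points share the same 2 libraries, and genes are not independent replicates. QARS at 9.19 kb and FARSA at 11.6 kb had the shortest spans of the 18.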

How the data were processed

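RNA-seq was run on 2 RIP libraries of T47D cells, 1 with an IMP1 antibody and 1 with IgG. The authors deposited FPKM per gene, and the submitters' processing notes name hg19. The aligner, the program that gave the FPKM, the annotation and the use of strand are not given in the sources used here. Zeros stand as 1e-05 in the deposited table, and values at or below 1e-05 were set to 0. Locus starts count from 0, so 1 was added. The authors' fold change, p-value and q-value columns and their lists of higher and lower genes hold their own comparisons and were not used. The depth of the libraries, and with it the precision of each value, is unknown, because FPKM are not counts.

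The log2 ratio of (FPKM + 0.1) was taken for each of 18781 genes, with counts of those past 2-fold. No test was run, as each group is 1 library. Every synthetase and scaffold gene could be named. The values of 1 mitochondrial synthetase enter the counts and medians and are not reported here by themselves. For each other list the 3 largest and 3 smallest log2 ratios among genes that reached 1 FPKM in either library could be named. The members and lists were chosen with earlier results of these data known, and pseudogene names were taken out of the translation factor list after values were seen. Alternatives were other pseudocounts (1 and 0.01), filters, a 4-fold threshold, 3 rescalings of the IMP1 values and leaving out GARS and KARS. Promoters came from RefSeq (GRCh38.p14). The counting was tested on simulated data. Python 3.11.15, numpy 2.4.6, pandas 2.3.3 and matplotlib 3.10.9 were used.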

Additional observations from a re-analysis of the deposited data

How the results depend on the processing

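The count of synthetases at least 2-fold higher, 9, was 5 with a pseudocount of 1, 2 among genes above 0 in both libraries, 1 at 1 FPKM or more in both, and 19 after rescaling to the sum over all genes. The count at least 2-fold lower, 18, was 3 after that last rescaling and between 13 and 18 under the other alternatives. After that last rescaling 63.7% of all genes were higher and 13.0% lower. The cytosolic median log2 ratio of -1.96 was -1.89 and -1.97 with pseudocounts of 1 and 0.01, -2.00 above 0 in both libraries, -2.04 at 1 FPKM or more in both, -1.77 without GARS and KARS, and -1.17, -1.43 and -0.10 after rescaling to the median gene, to the sum without the 50 highest genes and to the whole sum. In the same order of alternatives, without the change of members, the mitochondrial median of -0.24 was -0.20, -0.24, -0.83 and -1.16, and the rescalings reversed it to 0.54, 0.29 and 1.61. The mitochondrial minus cytosolic difference of 1.72 kept its sign throughout, at 1.69 and 1.73 with the pseudocounts, 1.17 and 0.88 with the filters, 1.53 without GARS and KARS, 1.72, 1.72 and 1.71 after the rescalings, and 0.87 among genes with a mean of 1 to 20 FPKM, an alternative chosen after seeing the data. Rescaling to the whole sum turned 13 of 27 single ratios below 0, among them FARSB (to 0.25), RARS2 (0.25), SARS (0.094) and YARS2 (0.38), which had been past 2-fold, and AARS, CARS, HARS, RARS, VARS, TARS2, EARS2 and IARS2, which had not. A rescaling adds nearly the same shift to every ratio by its construction, and the filters remove the enzymes listed at 0 with IgG. Which scaling is right was not tested. No paired analysis was possible because each group is 1 library, and for the same reason no replicate could be left out. The depth is unknown, so low values and zeros carry no interval.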

Other observations

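Of the 38 synthetases, 16 share a locus entry of the deposited table with another gene and 22 stand alone. The genes in these entries were looked at after the synthetase values were seen, and how fragments were assigned between neighbours is not given in the sources used here. Taking the 12 synthetases that were past 2-fold and share an entry with a gene above 0 in a library, there were 15 pairings, in 6 of which the neighbour was past 2-fold the same way, in 3 the other way and in 6 within 2-fold. Over all genes 29.9% were at least 2-fold lower and 39.9% at least 2-fold higher, so the tally does not set shared entries apart from other genes. MARS shares its entry with DDIT3, which had 3.64 FPKM with the IMP1 antibody and 97.2 FPKM with IgG, the same direction as MARS. YARS2 shares its entry with DNM1L, the GTPase of mitochondrial fission, which had 4.53 and 41.5 FPKM, also lower as YARS2 was. CARS2 shares its entry with ING1, which had 0.976 and 7.72 FPKM, and WARS shares its entry with WDR25, which had 1.48 and 9.42 FPKM. SARS2 and its entry's MRPS12, a protein of the mitochondrial ribosome, were both listed at 0 with IgG, and MRPS12 had 5.95 FPKM with the IMP1 antibody. VARS2 was listed at 0 with IgG beside GTF2H4, which had 2.98 and 2.88 FPKM. GGCT in the entry of GARS had 14.4 and 9.86 FPKM and lay within 2-fold, as S100PBP did beside YARS, with 2.74 and 2.67 FPKM. In the entries of WARS2, GARS and DARS a clone-named transcript was higher with the IMP1 antibody while the synthetase was lower.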
